A study of Mus musculus with 22 samples.

Results

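The genes described here lie side by side on mouse chromosome 17, in a gene-dense block running from about 23 to just past 26 Mb, inside the stretch that is present in 3 copies in Ts43H males. Members were chosen by position alone, from a list of 59 genes of the block, and 54 of them were found by gene symbol or older synonym among the 15780 named genes of the array. Mmp25, Kremen2, Atp6v0c, Rnps1 and Unkl were not matched and are not analysed here. The block has 58 further genes on the array that were not listed, and the rest of the segment, set to the first 30 Mb of the chromosome because the labels give no breakpoint, has 140.

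RNA was taken from male mice 2 months old. The trisomic groups were Ts43H males, and they were compared with their euploid siblings, labelled t121/D17, with 3 copies of the segment in trisomics against 2 in euploids. The labels do not explain the elements of the euploid genotype, so alleles shared by both genotypes cannot be listed. Liver, pre-mid-pachytene spermatocytes and spermatids had 3 arrays of each genotype, and mid-late-pachytene spermatocytes had 2 of each, giving 22 arrays in all. The 3 germ cell populations were sorted from testis by flow cytometry, and the liver was used as tissue. The labels do not say whether each array had an animal of its own, so p-values measure the spread between these samples, which may be partly technical.

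Ts43H is a partial trisomy in which a small marker chromosome adds a copy of the proximal end of chromosome 17. An extra copy of a gene raises its transcript in proportion when nothing else in its regulation changes. Pachytene is the stage of meiosis at which homologous chromosomes are fully paired, and chromosomes without a partner can be silenced there, while spermatids are the haploid cells that follow the meiotic divisions. The block carries genes of many basic processes. Several encode mitochondrial proteins or factors that build iron-sulfur clusters, others belong to lysosomes, RNA processing or the ubiquitin system, and the growth regulators Tsc2 and Pdpk1 and the cilium genes Ift140 and Pkd1 also lie there.

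Values are log2 intensities, so a difference of 1 unit is a doubling, and a 1.5-fold ratio is a difference of 0.58. A gene was tested in a cell type when its mean there was at least 4, and values below 3 lie in the background range of these arrays. Array medians ran between 4.15 and 4.75, replicate arrays of a group correlated at 0.988 to 0.997 over genes, and no 2 arrays held identical values. All 7 hepatocyte markers averaged together at 15.8 to 15.9 on trisomic and 15.7 to 15.9 on euploid liver arrays, and the 8 pachytene spermatocyte markers at 12.6 to 12.7 on trisomic and 12.3 to 12.5 on euploid pre-mid-pachytene arrays. The sorted pre-mid-pachytene cells also held elongating spermatid markers at 13.8 to 14.6 on trisomic and 14.0 to 14.3 on euploid arrays.

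Of the 54 members, 37 were tested in all 4 cell types. Another 8, Zfp213, Paqr4, Tbc1d24, Mlst8, Syngr3, Rpusd1, Nme4 and Pdia2, were tested in none, their means being under 4 throughout, so nothing can be said of their dosage. The euploid level was highest in mid-late-pachytene spermatocytes for 20 members, in liver for 16, in pre-mid-pachytene spermatocytes for 12 and in spermatids for 6. Some members differed widely between cell types. Ift140, a subunit of the complex that carries cargo back from the tip of the cilium, averaged 7.78 ± 0.74 in euploid liver and 14.9 ± 0.10 in euploid mid-late-pachytene spermatocytes (SD, n = 3 and 2). Fahd1, a mitochondrial hydrolase family member, averaged 11.0 ± 0.30 in euploid liver and lay in the background range, at 2.43 to 2.48, on the euploid pre-mid-pachytene arrays.

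Adjacent genes of the block can start back to back, and 4 pairs of members have starts under 1000 bases apart on opposite strands. In 3 of the pairs both members were tested in liver, and promoter sequences are shown for the 2 of these whose changes there were furthest apart, a difference that was not tested, and for Ift140 and Decr2, the tested members with the greatest difference between pre-mid-pachytene spermatocytes and liver; all 4 were chosen after the values were seen. They come from RefSeq on the build GRCm38.p6. Tsc2 and Nthl1 start 55 bases apart, with chr17:24632628-24632681 between them, shown on the plus strand toward Nthl1. Fahd1 and Hagh start 188 bases apart, with chr17:24850303-24850489 between them, shown on the plus strand toward Hagh. In each pair these are the closest annotated starts. The Tsc2-Nthl1 stretch overlaps the annotated spans of both its genes, and the Fahd1-Hagh stretch that of Hagh. The 250 bases before Ift140 are chr17:25015836-25016085 on the plus strand, and those before Decr2 are chr17:26090165-26090414 on the minus strand. Capitals mark matches, on either strand, to 4 short motifs: CCAAT (the core of the NF-Y site), CCGGAAG (a core of sites for ETS factors), GGGCGG (a core that factors of the Sp family bind) and TATAAA (the TATA box).
Tsc2-Nthl1: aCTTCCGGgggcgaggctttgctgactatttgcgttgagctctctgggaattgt
Fahd1-Hagh: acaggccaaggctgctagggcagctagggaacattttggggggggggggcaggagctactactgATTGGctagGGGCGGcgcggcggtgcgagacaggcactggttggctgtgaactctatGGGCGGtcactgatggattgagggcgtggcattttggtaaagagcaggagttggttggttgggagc
Ift140: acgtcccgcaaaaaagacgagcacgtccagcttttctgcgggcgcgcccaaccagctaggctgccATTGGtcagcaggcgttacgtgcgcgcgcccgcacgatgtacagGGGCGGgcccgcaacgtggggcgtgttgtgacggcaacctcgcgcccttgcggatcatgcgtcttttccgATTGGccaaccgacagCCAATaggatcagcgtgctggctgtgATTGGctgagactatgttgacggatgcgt
Decr2: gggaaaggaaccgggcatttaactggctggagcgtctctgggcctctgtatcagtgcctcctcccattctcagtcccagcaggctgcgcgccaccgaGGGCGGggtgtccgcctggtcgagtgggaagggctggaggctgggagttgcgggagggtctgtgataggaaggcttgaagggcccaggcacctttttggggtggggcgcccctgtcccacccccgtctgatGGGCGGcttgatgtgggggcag

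A promoter window was found for 46 of the 54 members, in 61 windows in all. The letters GGGCGG were in 60.7% of member windows against 32.7% of all 32851 windows of 250 bases, and CCAAT was in 50.8% against 33.8%. CCGGAAG was in 14.8% against 6.91%, and TATAAA was in 1.64% against 12.4%. None of the 4 motifs contains another. Member windows held a median of 15 CG dinucleotides, against 6 over all windows. The Ift140 window, which overlaps the annotated spans of Ift140 itself and of the neighbouring gene Cramp1l, holds 4 CCAAT matches. The short stretch between Tsc2 and Nthl1 holds 1 CCGGAAG match on the opposite strand, and Decr2 has GGGCGG as its only kind of match. A match is a description of the letters and says nothing of binding in these cells.

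In liver, members of the block were higher in trisomics. Of 43 members tested, 21 rose and none fell, 48.8% against the 6.25% of all 8180 tested genes that rose and the 4.18% that fell. The median change over the tested members was 0.68, a 1.60-fold ratio, against -0.013 over all genes tested. Every one of the 43 had a positive change, against 3935 of all 8180 tested genes. An unadjusted p under 0.05 was reached by 34, all upward, against 1048 of the 8180 genes upward and 870 downward. On 31 of the 43, all trisomic arrays lay above all euploid arrays, which 11.8% of all tested genes did. The 95% interval of the change held the 1.5-fold copy ratio for 35 members, lay above it for 6 and below it for 2. Msln and Nthl1, counted among the 21 that rose and among these 6, reached the minimum of 4 through the trisomic arrays. The tested genes of the segment outside the block had a median change of 0.67 with 39 of 78 rising, and the unlisted genes of the block 0.66 with 9 of 23 rising. Distal chromosome 17, present in 2 copies in both genotypes, had a median of -0.033.

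**Figure D1:**
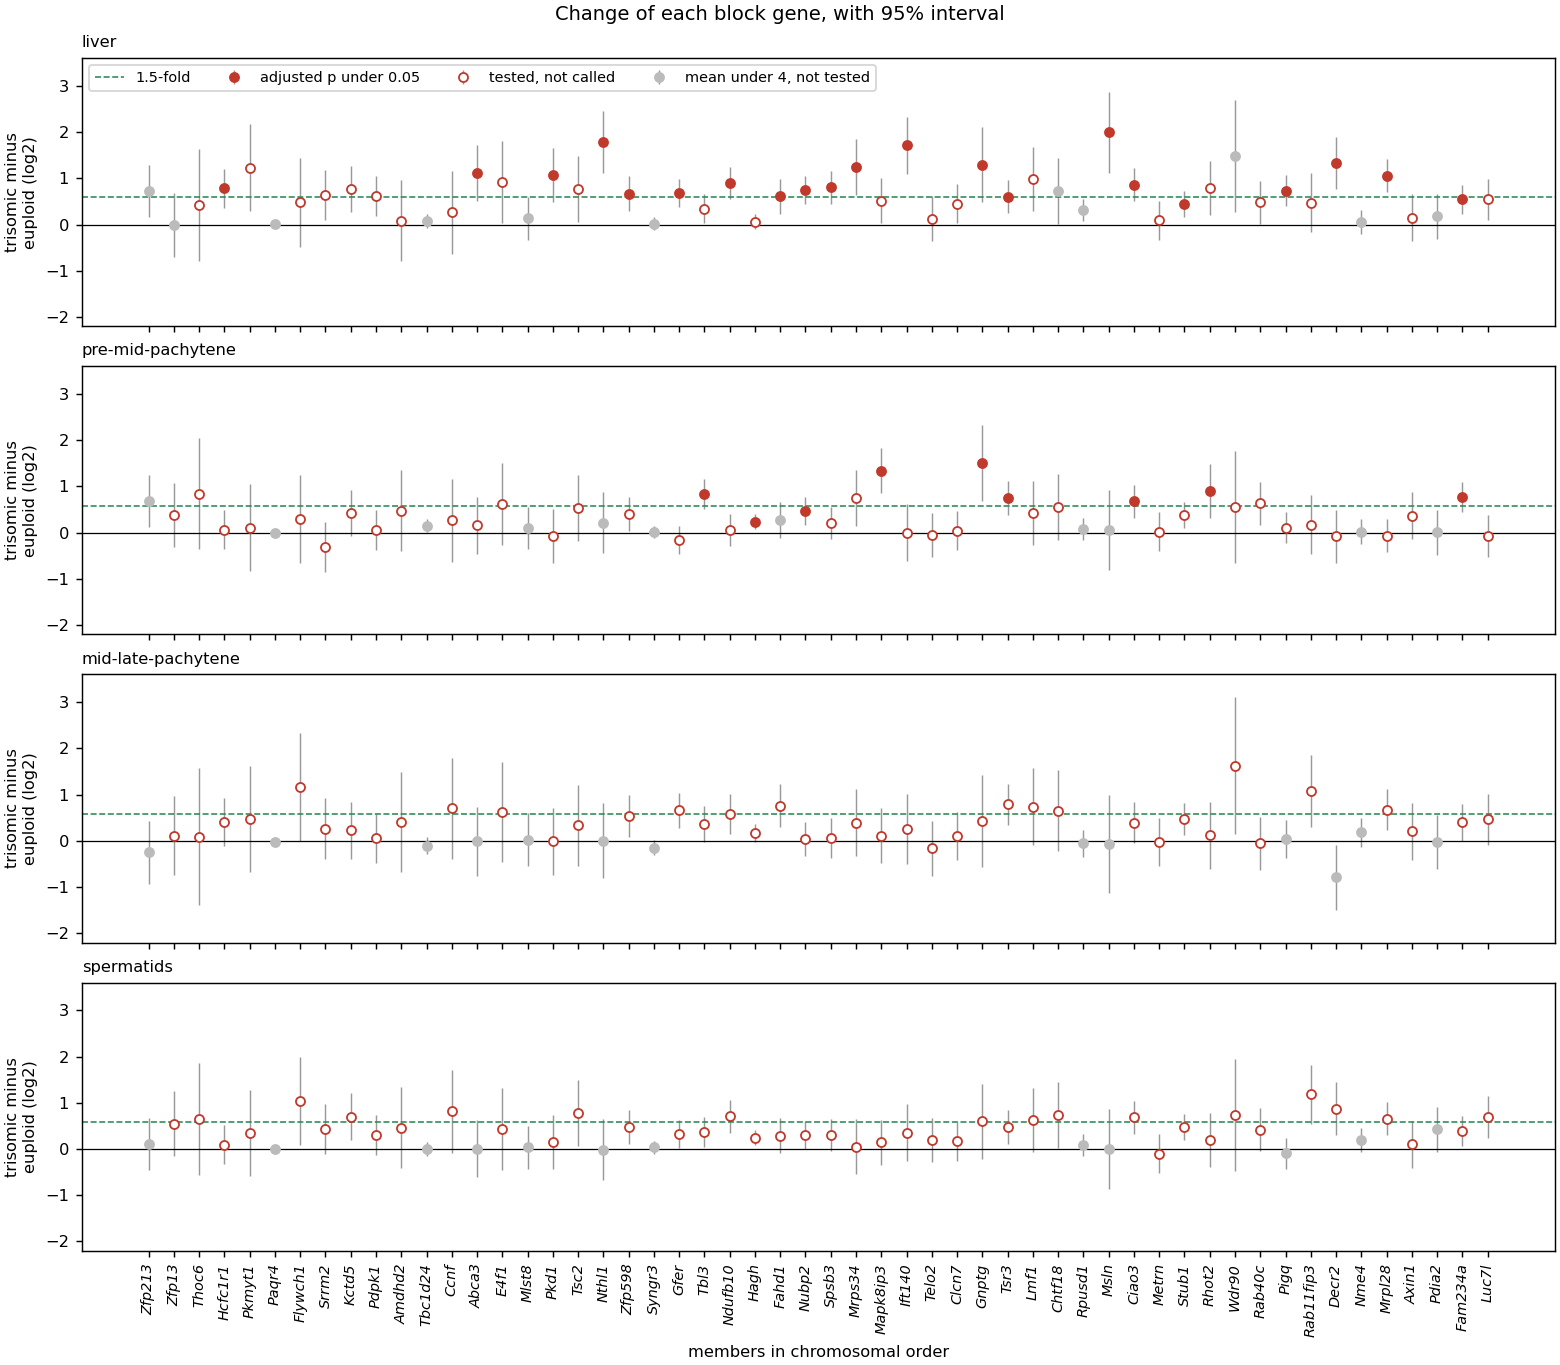
Change of each of the 54 members (trisomic minus euploid, log2, vertical axis) with its 95% interval in 4 panels for liver and the 3 germ cell types, the members along the horizontal axis in chromosomal order. Filled red points passed the test, open red points were tested and did not, grey points had a mean under 4, and the dashed line is a 1.5-fold ratio. The 21 members that passed in liver are spread along the block, 9 passed in pre-mid-pachytene spermatocytes and none in the other germ cells.

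The block was summarised on each array by the median deviation of its members with a mean of at least 6, minus the same median over the autosomes outside chromosome 17. This level was 0.37, 0.45 and 0.29 on the trisomic liver arrays, against -0.38, -0.24 and -0.36 on the euploid ones. In pre-mid-pachytene spermatocytes it was 0.022, 0.11 and 0.15 on trisomic arrays, against -0.072, -0.22 and 0.0040 on euploid arrays. Liver thus had a wide gap between the genotypes, while in pre-mid-pachytene spermatocytes the lowest trisomic array lay just above the highest euploid one. In mid-late-pachytene spermatocytes the level was 0.29 and 0.11 on trisomic arrays, against -0.16 and -0.20 on euploid arrays. In spermatids it was 0.15, 0.27 and 0.21 on trisomic arrays, against -0.22, -0.23 and -0.21 on euploid arrays. The trisomic mean exceeded the euploid one by 0.69 in liver, and among the germ cells by 0.43 in spermatids, by 0.38 at the mid-late-pachytene stage and by 0.19 at the pre-mid-pachytene stage. That last value was 0.089 over members with a mean of at least 8 and 0.30 as a mean over members. No test was made on this summary.

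**Figure D2:**
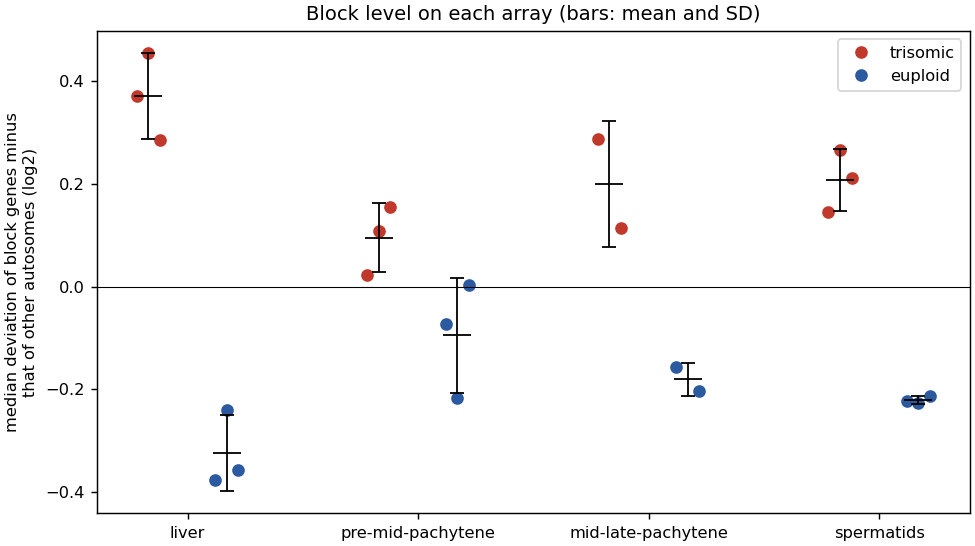
Block level on each array, the median deviation of members minus that of the other autosomes (log2, vertical axis), for trisomic (red) and euploid (blue) arrays of liver and the 3 germ cell types, with the mean and SD as bars. The trisomic mean was 0.37 and the euploid mean -0.32 in liver, against 0.095 and -0.095 in pre-mid-pachytene spermatocytes.

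Of the mitochondrial and iron-sulfur genes, 7 of 9 tested rose in liver, with a group median of 0.79, where 48.8% of all tested members rose. The role groups were formed with earlier results of these data known. Mrps34, a protein of the small mitochondrial ribosomal subunit, measured 12.2, 12.1 and 11.6 in trisomic liver, against 10.7, 11.0 and 10.3 in euploid liver. The trisomic arrays lay above the euploid ones throughout, and the change was 1.25 (SE 0.28, limma adjusted p = 0.00954). Mrpl28, of the large subunit, measured 12.5, 12.3 and 12.2 in trisomic liver, against 11.2, 11.2 and 11.4 in euploid liver, a change of 1.06 (SE 0.17, adjusted p = 0.000798). Ndufb10, a subunit of respiratory complex I, measured 13.9, 13.8 and 13.7 in trisomic liver, against 13.2, 13.0 and 12.5 in euploid liver, a change of 0.90. Groups did not overlap for any of these 3 genes. The others that rose were Ciao3 by 0.86 and Nubp2 by 0.74, both needed for iron-sulfur cluster assembly in the cytosol, Gfer by 0.68, the sulfhydryl oxidase of mitochondrial protein import, and Fahd1 by 0.61. Rhot2, a GTPase of the outer mitochondrial membrane, had a change of 0.79 that did not pass (adjusted p = 0.0844). Hagh, a hydrolase of the glyoxalase system, differed by 0.062 (95% interval -0.097 to 0.22), which lies below the 1.5-fold ratio.

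Of the genes of lysosomes, vesicles, endoplasmic reticulum and peroxisomes, 4 of 8 tested rose in liver. Decr2, a peroxisomal reductase used in the breakdown of unsaturated fatty acids, measured 13.1, 13.6 and 12.9 in trisomic liver, against 11.9, 11.9 and 11.9 in euploid liver. The euploid arrays were tightly grouped and all trisomic arrays lay above them, with a change of 1.33 (SE 0.27, adjusted p = 0.00435). Gnptg, a subunit of the enzyme that tags lysosomal enzymes with mannose phosphate, measured 8.36, 8.91 and 8.30 in trisomic liver, against 7.49, 7.22 and 6.96 in euploid liver. Its change of 1.30 (SE 0.38, adjusted p = 0.0429) moved over the threshold when any 1 liver array other than euploid replicate 1 was left out, with adjusted p-values up to 0.139. Abca3, a lipid transporter, rose by 1.11, and Pigq, of glycolipid anchor synthesis, by 0.73. Lmf1, a lipase maturation factor, had non-overlapping groups and a change of 0.99 (adjusted p = 0.0653). Clcn7, a chloride-proton exchanger of lysosomes, differed by 0.45, Rab11fip3, an adaptor of recycling endosomes, by 0.47 and Amdhd2, of amino sugar breakdown, by 0.085, none past the threshold.

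Both cilium genes tested in liver rose. Ift140 measured 9.67, 9.65 and 9.16 in trisomic liver, against 8.26, 8.16 and 6.93 in euploid liver, with the third euploid array well below the other two. The change was 1.71 (SE 0.29, adjusted p = 0.00122), and between 1.29 and 1.95 when any 1 liver array was left out. Pkd1, which encodes polycystin and is mutated in polycystic kidney disease in humans, measured 6.38, 6.53 and 6.03 in trisomic liver, against 5.01, 5.31 and 5.41 in euploid liver. Its groups did not overlap, and it rose by 1.07 (SE 0.28, adjusted p = 0.0209). Wdr90, a centriole protein, had a mean under 4 in liver and was not tested there.

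Among cell cycle, replication and repair genes, 1 of 4 tested rose in liver. Nthl1, a glycosylase that removes oxidised pyrimidines from DNA, measured 5.81, 5.91 and 5.16 in trisomic liver, against 2.94, 4.67 and 3.92 in euploid liver. Its euploid mean was 3.84 ± 0.87, so it reached the minimum of 4 through the trisomic arrays, and its change was 1.79 (SE 0.31, adjusted p = 0.00155). That SE pools all groups, and in the germ cells Nthl1 lay near the background range. With only the liver arrays in the fit Nthl1 did not pass. Pkmyt1, a kinase that holds Cdk1 inactive, measured 5.19, 5.03 and 6.79 in trisomic liver, against 3.22, 5.04 and 5.06 in euploid liver. Those groups overlapped, and the change of 1.23 did not pass (adjusted p = 0.0906). Of 5 genes of the same step that lie outside the segment and were tested in liver, Cdk1 averaged 5.95 ± 1.89 in trisomic liver and 2.82 ± 0.19 in euploid liver, and Cdc20 6.90 ± 1.71 in trisomic and 2.49 ± 0.20 in euploid liver (SD, n = 3 each). Both passed, with euploid means in the background range, so they reached the minimum of 4 through the trisomic arrays. Wee1 differed by -0.18, Cdc25a by 0.15 and Rrm2 by 1.07, and none of these passed. Their part in the value of Pkmyt1 was not tested. E4f1, a zinc finger regulator of the cell cycle, differed by 0.91 and Ccnf, cyclin F, by 0.26, and neither passed.

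Of the RNA processing and ribosome genes, 2 of 6 tested rose in liver. Zfp598, a ubiquitin ligase that senses collided ribosomes, rose by 0.67, and Tsr3, which modifies the RNA of the small ribosomal subunit, by 0.61. The splicing factor gene Srrm2 had non-overlapping groups and a change of 0.64 (adjusted p = 0.128). Luc7l, of the U1 particle, differed by 0.54, Thoc6, of the complex that couples transcription to RNA export, by 0.43 and Tbl3, of the small-subunit processome, by 0.35. Of the ubiquitin genes, Spsb3, a SOCS box protein, rose by 0.80 and Stub1, a ligase that works with chaperones, by 0.44. Kctd5, an adaptor of cullin ligases, was just outside the threshold with 0.77 (adjusted p = 0.0506). Hcfc1r1, a regulator of host cell factor, rose by 0.78, while the zinc finger gene Flywch1 differed by 0.48 with overlapping groups.

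None of the 5 tested growth signalling and Wnt genes passed the threshold in liver, and their changes ran from 0.13 to 0.76. Tsc2, whose product restrains mTOR, measured 7.27, 8.10 and 7.79 in trisomic liver, against 6.76, 7.13 and 6.98 in euploid liver. The groups were narrowly apart and the change was 0.76 (SE 0.34, adjusted p = 0.179). Pdpk1, the kinase that activates Akt, measured 10.5, 10.2 and 10.5 in trisomic liver, against 9.22, 10.1 and 10.1 in euploid liver, a change of 0.62 (adjusted p = 0.0643). The scaffold gene Mapk8ip3, of the JNK pathway, differed by 0.51. Axin1, the scaffold of the beta-catenin destruction complex, differed by 0.15 (95% interval -0.36 to 0.65) and Telo2, a chaperone of mTOR-family kinases, by 0.13 (95% interval -0.35 to 0.61), intervals that hold both no change and 1.5-fold.

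Of the cell surface and secreted genes, Msln and Fam234a rose and Metrn, which encodes the secreted protein meteorin, differed by 0.095. Msln, a surface protein of mesothelial cells, measured 5.50, 6.36 and 5.56 in trisomic liver, against 4.23, 4.84 and 2.38 in euploid liver. It reached the minimum of 4 through the trisomic arrays. Its change was the greatest of the members tested in liver, at 1.99 (SE 0.41, adjusted p = 0.00496), and 1.28 to 2.50 when 1 liver array was left out. That SE pools the liver SDs, 0.48 in trisomics and 1.28 in euploids, with germ cell arrays that all lay in the background range. With only the liver arrays in the fit Msln did not pass. The 6 mesothelium markers averaged 4.32 to 4.62 on trisomic liver arrays, against 2.66 to 3.91 on euploid liver arrays. Of the 2 that could be tested, Krt19 rose by 1.26 and Gpm6a differed by 1.95 (adjusted p = 0.0524). Krt19 averaged 5.02 in trisomic and 3.76 in euploid liver, so it too reached the minimum of 4 through the trisomic arrays. The other 4 had means under 4 over both genotypes and were not tested: Upk3b averaged 5.29 in trisomic and 2.58 in euploid liver, Lrrn4 averaged 3.85 in trisomic and 3.02 in euploid liver, and Upk1b and Wt1 were below 3 in both. Stellate and stromal markers also averaged higher, 9.02 to 9.59 on trisomic against 8.51 to 8.92 on euploid liver arrays, with 2 of 5 rising. Their part in the change of Msln was not tested, and in tissue RNA a change in the share of cells that express a gene cannot be told apart from a change in RNA per cell.

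The liver count depended on which arrays entered the fit. It ran from 12 to 22 members when 1 liver array was left out, the lowest without trisomic replicate 2, and 12 members passed whichever array was left out: Ift140, Gfer, Pigq, Nthl1, Decr2, Nubp2, Msln, Ciao3, Ndufb10, Mrpl28, Spsb3 and Mrps34. Of these, Nthl1 and Msln reached the minimum of 4 through the trisomic arrays. With only the 6 liver arrays in the fit, 2 members, Abca3 and Mrpl28, remained past the threshold, where 34 of all genes were called in place of 853.

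In pre-mid-pachytene spermatocytes fewer members rose. Of 43 tested, 9 rose and none fell, 20.9% against the 7.31% of all 8384 tested genes that rose and the 4.56% that fell. An unadjusted p under 0.05 was reached by 13, all upward, against 1506 of the 8384 genes upward and 774 downward. The median change was 0.37, a 1.29-fold ratio, and it was 0.24 without trisomic replicate 3 and 0.22 over members with a mean of at least 8. Autosomes outside chromosome 17 had a median change of 0.12 in this cell type, so relative to them the members were 0.25 higher, and 28 of 43 lay above that autosomal median. All trisomic arrays lay above all euploid arrays for 15 members, 34.9% against 20.8% of all tested genes. The 95% interval held the 1.5-fold ratio for 26 members, lay below it for 15 and above it for 2. The segment outside the block had a median of 0.24, with 11 of 87 rising and 2 falling, and the unlisted block genes 0.18, with 2 of 24 rising.

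Gnptg had the greatest change of the members that rose. It measured 8.66, 8.42 and 8.77 in trisomic pre-mid-pachytene spermatocytes, against 7.17, 7.35 and 6.80 in euploid ones, a change of 1.51 (SE 0.38, adjusted p = 0.0216). Mapk8ip3, which also links motor proteins to their cargo, measured 8.17, 7.83 and 8.06 in trisomic cells, against 6.47, 7.12 and 6.47 in euploid cells, a change of 1.34 (SE 0.23, adjusted p = 0.0029). Groups did not overlap for either gene, and the intervals of both lay above the 1.5-fold ratio. Rhot2 measured 7.75, 7.93 and 7.31 in trisomic cells, against 6.77, 6.74 and 6.79 in euploid cells, and its change of 0.89 (SE 0.28) was close to the threshold with an adjusted p of 0.0472. Euploid arrays agreed closely for this gene.

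The ribosome biogenesis genes Tbl3 and Tsr3 both rose in pre-mid-pachytene spermatocytes. Tbl3 measured 10.2, 10.1 and 10.2 in trisomic cells, against 8.96, 9.50 and 9.53 in euploid cells, a change of 0.84 (SE 0.15, adjusted p = 0.00386). Tsr3 measured 8.92, 8.83 and 8.39 in trisomic cells, against 7.85, 7.91 and 8.13 in euploid cells, a change of 0.75 (SE 0.17, adjusted p = 0.0132). Fam234a, a membrane protein gene, measured 11.1, 10.8 and 11.2 in trisomic cells, against 9.99, 10.3 and 10.5 in euploid cells, a change of 0.77 (SE 0.15, adjusted p = 0.00631). The 3 genes had non-overlapping groups. Ciao3 rose by 0.68 and Nubp2 by 0.48, as both had in liver. Hagh rose by 0.24 (adjusted p = 0.0483), with an interval of 0.082 to 0.40 that lies below the 1.5-fold ratio.

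Several members that rose in liver had changes close to 0 in these cells. Ift140 measured 11.8, 12.1 and 12.4 in trisomic cells, against 12.2, 11.7 and 12.4 in euploid cells, a change of -0.0043 (95% interval -0.62 to 0.61). Gfer differed by -0.16 (95% interval -0.47 to 0.15), Mrpl28 by -0.061 (95% interval -0.42 to 0.30) and Decr2 by -0.081 (95% interval -0.65 to 0.49). All 3 of these intervals lie below 1.5-fold, whereas that of Ift140 reaches it. Decr2 measured 3.83, 4.47 and 5.13 in trisomic cells, against 4.40, 4.47 and 4.79 in euploid cells. It was thus close to the minimum of 4, where changes of low signals can be compressed. Srrm2 had the lowest change, -0.31, and did not pass. None of the 4 ubiquitin genes, the 4 cell cycle and repair genes, the 3 cilium genes and the 3 zinc finger and regulator genes tested rose.

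The pre-mid-pachytene count also depended on single arrays. It ran from 3 to 7 when 1 array was left out, with 3 without trisomic replicate 2, 4 without trisomic replicate 1 and 5 without either euploid replicate 1 or euploid replicate 3. Tbl3, Mapk8ip3 and Fam234a passed whichever array was left out. With only these 6 arrays in the fit 1 member, Gnptg, remained past the threshold, and with a minimum mean of 8 there were 4. Markers of stages differed as well. Round spermatid markers averaged 9.83 to 10.5 on trisomic against 10.4 to 11.1 on euploid arrays, with 1 of 8, Acrv1, falling by 1.65. Of the pachytene markers 2 of 8, Adam2 and Tcp11, rose, and of the early prophase markers 1 of 7, Stag3. Markers were not filtered by position, so these lists can hold genes of the 3-copy segment, as Meiob of the early prophase list is. The part of the marker differences in the changes of the block was not tested.

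In mid-late-pachytene spermatocytes none of 41 tested members passed with limma, and 11 had an unadjusted p under 0.05, all upward. Over all 8085 tested genes 0.606% rose and 0.458% fell past the threshold. At an unadjusted p under 0.05, 413 of these genes were higher and 262 lower in trisomics. The median change of the members was 0.40, a 1.32-fold ratio, against 0.0034 over all genes tested, and 37 of 41 lay above the autosomal median. All trisomic arrays lay above all euploid arrays for 24 members, against 17.7% of all tested genes, with 2 arrays in each group. The interval held 1.5-fold for 34 members and lay below it for 7. The segment outside the block had a median of 0.28, with 1 of 83 rising.

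Tsr3 had the lowest adjusted p, measuring 10.00 and 9.91 in trisomic cells, against 9.15 and 9.18 in euploid cells, a change of 0.79 (adjusted p = 0.104). Gfer measured 11.4 and 11.2 in trisomic cells, against 10.9 and 10.4 in euploid cells, a change of 0.66 (adjusted p = 0.111). It was the 1 member that passed when euploid replicate 1 was left out. Fahd1 measured 7.87 and 7.93 in trisomic cells, against 7.25 and 7.05 in euploid cells, a change of 0.75 (adjusted p = 0.154). Wdr90 had the highest change, 1.63, but its euploid arrays measured 5.51 and 2.30, and it reached the minimum of 4 through the trisomic arrays at 5.80 and 5.27. Decr2 measured 2.41 and 2.70 in trisomic cells, against 3.43 and 3.26 in euploid cells, near the background range, and was not tested.

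In spermatids none of 42 tested members passed with limma, while 0.278% of all 8283 tested genes rose and 0.495% fell. At an unadjusted p under 0.05 there were 17 members, all upward, against 403 of the 8283 genes upward and 391 downward. The median change was 0.43, a 1.35-fold ratio, against 0.013 over all genes tested. Of the 42 changes 41 were positive, against 4364 of those of all 8283 genes. All trisomic arrays lay above all euploid arrays for 24 members, 57.1% against 7.45% of all tested genes. The interval held 1.5-fold for 39 members and lay below it for 3. The segment outside the block had a median of 0.32, with 4 of 83 rising.

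Ndufb10 came closest to the threshold in spermatids. It measured 12.3, 12.3 and 12.6 in trisomic cells, against 11.5, 11.8 and 11.8 in euploid cells, a change of 0.71 (SE 0.16, adjusted p = 0.0578). Ciao3 measured 9.89, 10.3 and 10.3 in trisomic cells, against 9.46, 9.65 and 9.35 in euploid cells, a change of 0.68 (adjusted p = 0.0793). Groups did not overlap for either gene. Rab11fip3 had the highest change, 1.18, with 4.77, 6.29 and 6.58 in trisomic cells, against 4.72, 4.67 and 4.70 in euploid cells, so that trisomic replicate 1 lay beside the euploid arrays. Without that array Rab11fip3 and Ciao3 passed the threshold. Chtf18, a clamp loader subunit used in sister chromatid cohesion, measured 9.55, 9.56 and 9.41 in trisomic cells, against 8.66, 8.86 and 8.80 in euploid cells, a change of 0.73 (adjusted p = 0.499). Hagh differed by 0.24 (95% interval 0.084 to 0.40), again below 1.5-fold.

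Whether a change differed between cell types was tested directly. Between pre-mid-pachytene spermatocytes and liver, 40 members could be tested and 5 passed, 12.5% with a smaller change in the spermatocytes against 2.38% of all 6510 tested genes, and none passed the other way, against 4.44%. The median difference over the members was -0.28, against 0.15 over all genes tested. It was -0.15 without euploid liver replicate 1 and -0.61 over members with a mean of at least 8, and with each array centred on its autosomal median it was -0.11, with 4 members passing downward and 3, Hagh, Tbl3 and Mapk8ip3, passing upward. Ift140 differed by -1.72 (SE 0.41, adjusted p = 0.0246), Decr2 by -1.41 (SE 0.38, adjusted p = 0.0387) and Mrpl28 by -1.12 (SE 0.24, adjusted p = 0.0152). Decr2 was close to the minimum of 4 in the spermatocytes, and it was not tested with a minimum mean of 6. Ndufb10 differed by -0.85 (SE 0.23, adjusted p = 0.0418) and Gfer by -0.84 (SE 0.21, adjusted p = 0.0278). Pkd1, whose change was -0.075 in pre-mid-pachytene spermatocytes and 1.07 in liver, did not pass (adjusted p = 0.0909).

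The count of these differences moved with the arrays. It was 1 without either trisomic pre-mid-pachytene replicate 1, trisomic replicate 2 or euploid replicate 3, 2 without trisomic liver replicate 1 or 2 or euploid liver replicate 3, 3 without euploid liver replicate 2, and 8 without euploid pre-mid-pachytene replicate 2. Mapk8ip3 was among them with a greater change in the spermatocytes, as it was without euploid liver replicate 1. Mrpl28 passed in each of these fits, and no member did when the fit held only the arrays of the 2 cell types. The deposited scale also matters here, since the autosomal median change was 0.12 in pre-mid-pachytene spermatocytes and -0.020 in liver. Nubp2, Spsb3 and Mrps34, which rose in liver, did not differ past the threshold between these cell types.

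**Figure D3:**
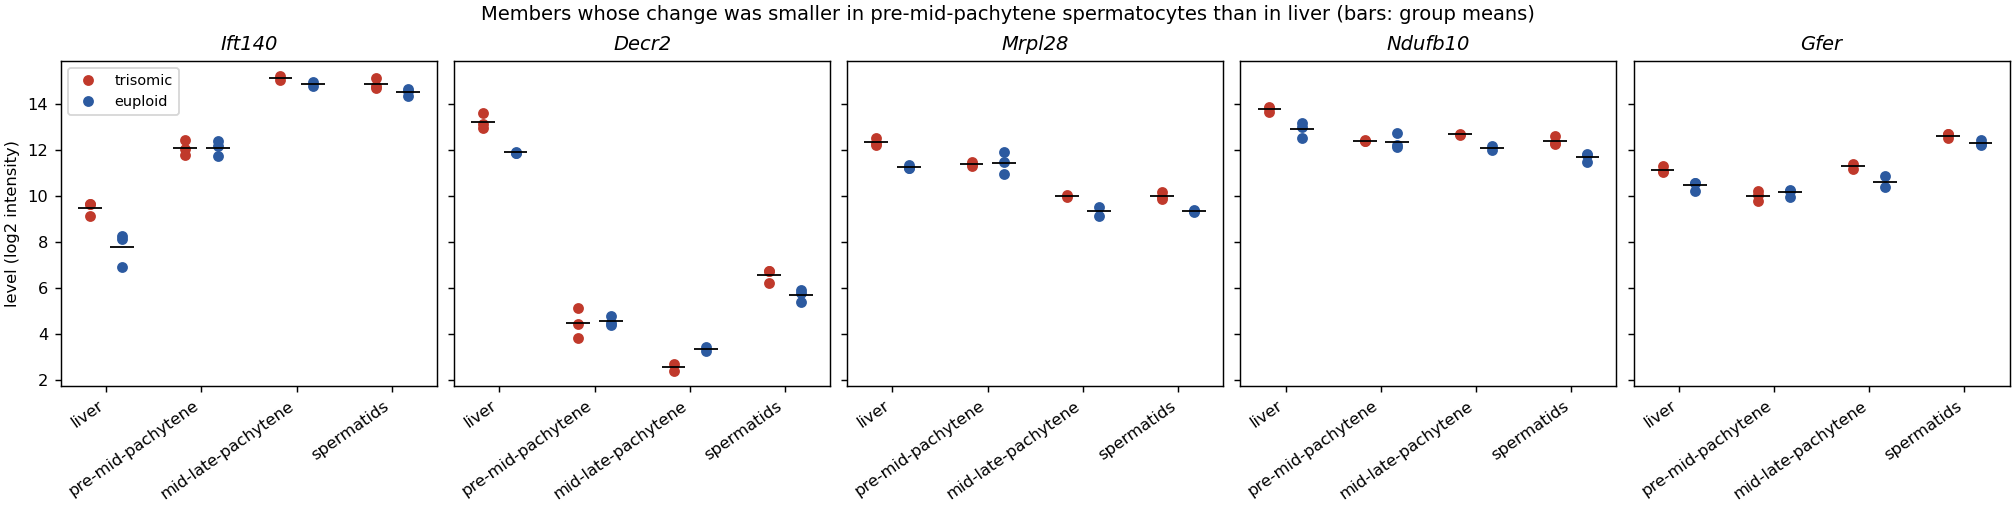
Level (log2 intensity, vertical axis) of the 5 members whose change was smaller in pre-mid-pachytene spermatocytes than in liver, on each trisomic (red) and euploid (blue) array of the 4 cell types, with group means as bars. Genotypes are apart in liver for all 5 genes and overlap in pre-mid-pachytene spermatocytes. At the mid-late-pachytene stage Decr2 is near the background range, measuring 2.41 and 2.70 in trisomic and 3.43 and 3.26 in euploid cells.

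The other comparisons between cell types gave no member past the threshold with limma. Of 38 members tested between mid-late-pachytene spermatocytes and liver, 4 had an unadjusted p under 0.05, all with a smaller change in the spermatocytes. Over all 6058 tested genes, 330 had an unadjusted p under 0.05 in that direction, and 0.594% passed the threshold. Ift140 had the greatest difference there, -1.45 (95% interval -2.42 to -0.48, adjusted p = 0.174). Of 39 tested between spermatids and liver, 6 had an unadjusted p under 0.05, all with a smaller change in spermatids. Over all 6006 tested genes, 405 had an unadjusted p under 0.05 in that direction, and 0.733% passed the threshold. Of 41 tested between spermatids and pre-mid-pachytene spermatocytes, 8 had an unadjusted p under 0.05, 6 of them with a greater change in spermatids. Over all 7401 tested genes, 469 had an unadjusted p under 0.05 with a greater and 778 with a smaller change in spermatids. Past the threshold, 0.257% of all genes had a greater and 0.419% a smaller change in spermatids. The scaffold gene Mapk8ip3 was the nearest to passing, with a change of 0.14 for the spermatids and 1.34 for the pre-mid-pachytene spermatocytes (adjusted p = 0.0992).

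Of the members past the threshold in liver or in pre-mid-pachytene spermatocytes, 5 rose in both, Gnptg, Tsr3, Fam234a, Ciao3 and Nubp2, which is 23.8% of the 21 in liver and 55.6% of the 9 in pre-mid-pachytene spermatocytes. In all, 25 members rose in at least 1 of the 2. Of the 37 members tested in all cell types, 28 had a positive change in each, and 23 lay above the autosomal median in each. In pre-mid-pachytene spermatocytes, where that median was 0.12, 5174 of all 8384 tested genes had a positive change. The share of all genes positive in each cell type was not computed. Across members, the changes in mid-late-pachytene spermatocytes and spermatids were related (r = 0.63 over 41 members), while for the other pairs of cell types r lay between -0.017 and 0.13. These correlations describe genes measured on the same arrays and carry no test. Between the change and the euploid level, r was -0.071 in spermatids, -0.096 at the mid-late-pachytene stage and -0.16 in liver. It was -0.32 in pre-mid-pachytene spermatocytes, where the median change was also smaller over members with a mean of at least 8. The euploid level enters the change with a minus sign, which by itself pulls r downward.

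The changes of members that share a start region are given side by side, with no test of the difference within a pair. Tsc2 and Nthl1, 55 bases apart, had changes of 0.76 and 1.79 in liver, where Nthl1 reached the minimum of 4 through the trisomic arrays. In the germ cells Tsc2 measured 5.10 to 7.33 on trisomic and 4.43 to 6.43 on euploid arrays, while Nthl1 stayed near the background range, at 2.51 to 3.24 on trisomic and 2.39 to 2.92 on euploid arrays. Fahd1 and Hagh, 188 bases apart, had changes of 0.61 and 0.062 in liver and 0.75 and 0.17 in mid-late-pachytene spermatocytes. Hagh lay at 12.1 to 15.6 over all arrays and had an interval below 1.5-fold in each of the 4 cell types. Nubp2 and Spsb3, 41 bases apart, had changes of 0.74 and 0.80 in liver and 0.30 and 0.30 in spermatids. The last pair, Chtf18 and Rpusd1, had starts 302 bases apart, and Rpusd1 was too low to test.

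**Figure D4:**
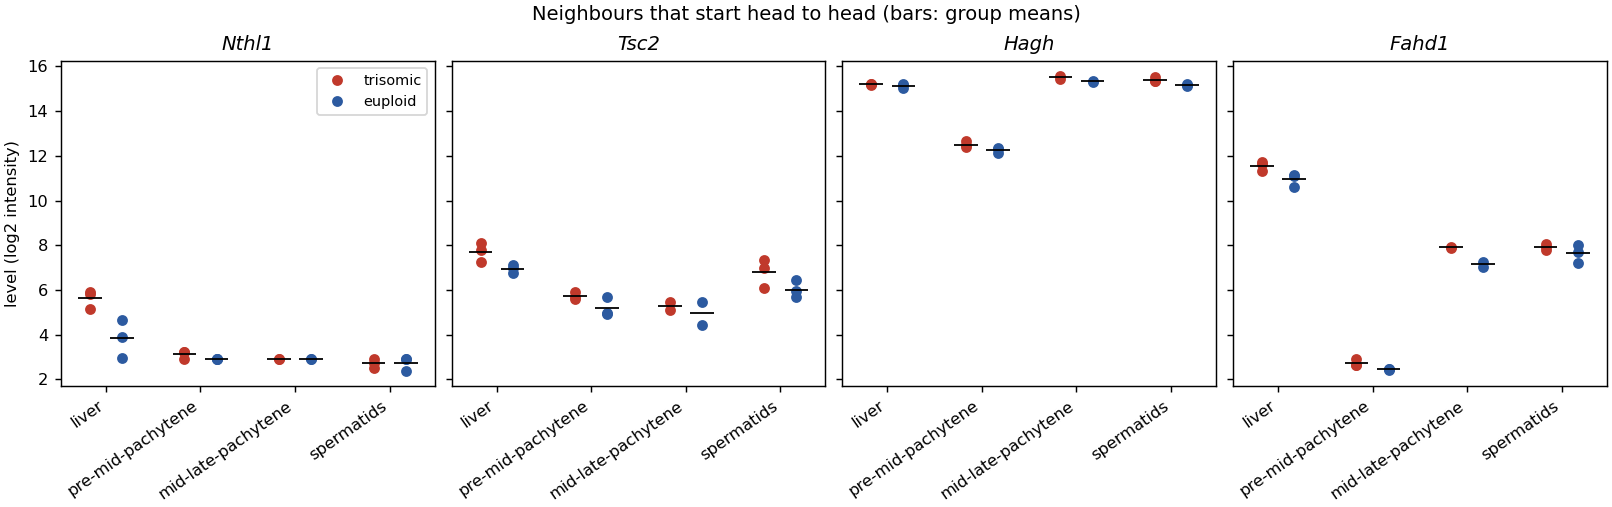
Level (log2 intensity, vertical axis) of the neighbours Nthl1 and Tsc2, and Hagh and Fahd1, on each trisomic (red) and euploid (blue) array of the 4 cell types, with group means as bars. Nthl1 measured 5.16 to 5.91 on trisomic against 2.94 to 4.67 on euploid liver arrays. On germ cell arrays it measured 2.51 to 3.24 in trisomics against 2.39 to 2.92 in euploids. Hagh differed by 0.062 in liver, 0.24 in spermatids and 0.17 at the mid-late-pachytene stage. In pre-mid-pachytene spermatocytes it differed by 0.24 and passed the test.

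Genes that work with the members but lie outside the segment were taken from 11 lists of complexes and pathways, with 160 genes on the array. In liver 15 of 144 tested rose and 3 fell, 10.4% upward against 6.25% of all genes, with a median change of 0.093. In pre-mid-pachytene spermatocytes 19 of 147 rose and 2 fell, 12.9% against 7.31%, with a median of 0.20 where the autosomal median was 0.12. In mid-late-pachytene spermatocytes none of 141 rose and 1, the proton pump accessory gene Atp6ap1, fell. In spermatids 1 of 145 rose, Mapkap1, a subunit of the second mTOR complex, by 0.90. The medians over all lists together were below those of the block members, 0.68 in liver and 0.37 in pre-mid-pachytene spermatocytes. Of single lists, that of the G2 to M step had a liver median of 1.07 over 5 tested genes, above the block. Cdk1 and Cdc20 among these reached the minimum of 4 through the trisomic arrays.

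The members are set beside the partners of their own complex in liver. Of 31 other complex I genes, 6 rose, with a median of 0.15 and a highest value of 0.70, and the lowest adjusted p were those of Ndufb2, which rose by 0.59, and Ndufs5, by 0.65, beside 0.90 for Ndufb10. Of 34 mitochondrial ribosome genes 3 rose, Mrps15 by 0.69 and Mrps5 by 1.14 among them, with a median of 0.17, beside 1.25 for Mrps34 and 1.06 for Mrpl28. Mrps5 averaged 5.11 in trisomic and 3.98 in euploid liver, so it reached the minimum of 4 through the trisomic arrays. The 3 tested partners of Ift140 in its transport complex had changes of -0.012 to 0.35, and none passed. None of 6 cytosolic iron-sulfur assembly genes and none of 12 THO and exon junction genes passed. Of 8 base excision repair genes, the ligase gene Lig3 fell by 0.54. In the mTOR list Mtor rose by 0.35, 1 of 14, and in the Wnt list Tbx3 rose by 0.74 and Gsk3b fell by 0.71. Of 7 clamp loader genes 2 rose, Rfc4 by 1.35 among them, and Rfc1 fell by 0.39, and of 5 genes of the G2 to M step Cdc20 and Cdk1 rose over euploid means in the background range, which leaves the size of their change unmeasured. None of 13 vacuolar ATPase genes passed in liver.

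**Figure D5:**
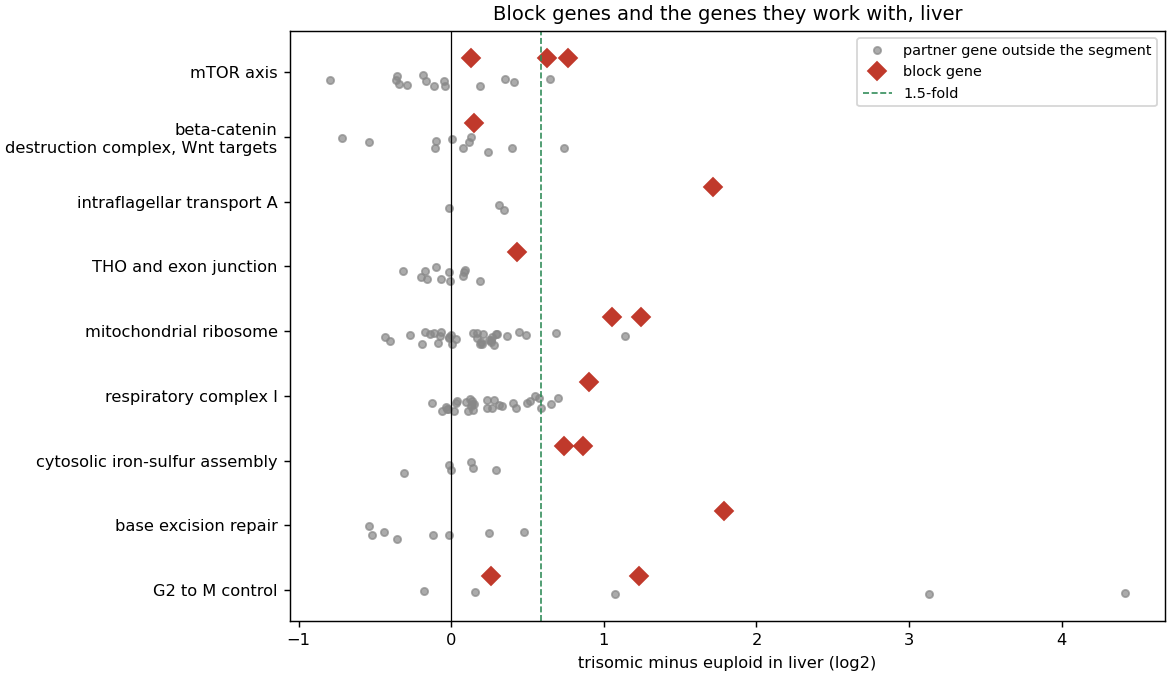
Change in liver (trisomic minus euploid, log2, horizontal axis) of block members tested there (red diamonds) and of their partner genes outside the segment (grey points) in 9 complexes and pathways, listed down the vertical axis; the dashed line is a 1.5-fold ratio. Ift140 at 1.71 and Mrps34 at 1.25 lie beyond every partner tested in their lists, while Nthl1 and the 2 highest G2 to M partners, Cdk1 and Cdc20, passed the minimum of 4 through the trisomic arrays alone and are not ranked.

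In pre-mid-pachytene spermatocytes 7 of 34 mitochondrial ribosome genes rose, Mrpl37 by 0.49 and Mrpl3 by 0.53 with the lowest adjusted p, whereas Mrpl28 of the block differed by -0.061. Of the complex I genes 2 of 31 rose, Ndufs1 by 0.75 and Ndufb6 by 0.36, beside 0.053 for Ndufb10. Of 6 cytosolic iron-sulfur assembly genes Ciao1 rose by 0.74 and Ciapin1 by 0.37, beside 0.68 for Ciao3 and 0.48 for Nubp2 of the block. The proton pump genes Atp6v1h and Atp6v1f rose by 0.72 and 0.79, the mTOR list genes Akt2 and Tti2 by 0.67 and 0.87, and the cell cycle phosphatase genes Cdc25a and Cdc25c fell by 0.86 and 0.71. In the other lists Wdr35, of the transport complex of Ift140, rose by 0.45, Ctnnb1, which encodes beta-catenin, by 0.94, Polb, a repair polymerase, by 0.48 and Sap18, of the exon junction list, by 0.40.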

How the data were processed

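RNA of 22 samples was measured on Affymetrix arrays after a labelling protocol of 2 cycles that started from 20 to 30 ng of total RNA, per the labels' protocols. For every probe set the authors deposited a log2 intensity made with GCRMA, per the submitters' processing notes. Its version and the set of arrays it was run on are not given in the sources used here. GCRMA corrects background by GC content, brings arrays to a common distribution and summarises each probe set, which compresses changes of low signals. Of 16539 probe sets, 15780 had 1 gene symbol, none had several and 759 had none, and those without a symbol were left out. Gene order came from RefSeq (GRCm38.p6), which placed 15752 genes. The number of arrays, not a count, limits precision.

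Group means of all 22 arrays were fitted with limma 3.58.1 in R 4.3.3, with 14 residual degrees of freedom, and compared by two-sided moderated tests, trisomic minus euploid in each cell type and as differences of these changes between cell types. Benjamini-Hochberg adjustment at 0.05 ran over all named genes whose mean reached 4 in each cell type of the comparison. The fit was run on simulated data with known changes in liver, and the liver estimates were checked there. The differences between cell types had no effective check of this kind. Alternatives changed the filter, the normalization, the centring, the spread estimate, the arrays in the fit and the replicate block.

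The members, role groups, partner lists and markers were chosen with earlier results of these data known. Any member may be named. Full statistics went to the 6 greatest increases and 3 greatest decreases past the threshold in a cell type and the 5 greatest differences between cell types, and other members that are given with values fall outside that rule. Up to 2 genes of each partner list and cell type were named, by lowest adjusted p. Partners in the first 30 Mb of chromosome 17 were dropped, which removed 1 gene. Markers were not filtered by position. Figures and other steps used python 3.11.15.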

Additional observations from a re-analysis of the deposited data

Results flagged for a closer look

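The change of 5 members differed between pre-mid-pachytene spermatocytes and liver by limma's test of the difference itself, with adjusted p under 0.05 over all genes. The differences, spermatocytes minus liver, were -1.72 for Ift140, -1.41 for Decr2, -1.12 for Mrpl28, -0.85 for Ndufb10 and -0.84 for Gfer. In liver all trisomic arrays lay above all euploid arrays for these genes, and in pre-mid-pachytene spermatocytes the groups overlapped. Decr2 averaged 4.47 in trisomic and 4.56 in euploid pre-mid-pachytene spermatocytes, close to the minimum of 4. The autosomal median moved by 0.12 in the spermatocytes and by -0.020 in liver, and the part of that shift in these differences was not tested.

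Rab40c, a substrate receptor gene of the ubiquitin system, had a change of -0.056 in mid-late-pachytene spermatocytes, where it measured 5.72 and 5.78 in trisomic and 5.79 and 5.82 in euploid cells, both trisomic arrays lying below both euploid ones. In that cell type 15.3% of all tested genes had all trisomic arrays below all euploid ones. The groups of Rab40c lay apart in the opposite direction in liver, with a change of 0.48, and in pre-mid-pachytene spermatocytes, with 0.64. Of all tested genes, 11.8% in liver and 20.8% in pre-mid-pachytene spermatocytes had all trisomic arrays above all euploid ones. The difference between mid-late-pachytene spermatocytes and liver did not pass with limma (adjusted p = 0.607), and that between mid-late-pachytene and pre-mid-pachytene spermatocytes was not tested. Groups of 2 or 3 arrays are too small for a check of single outlying arrays.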

How the results depend on the processing

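No named member changed sign under the alternatives run, whereas the balance of all genes called turned downward in liver and in pre-mid-pachytene spermatocytes under 1 centring each, given below: 154 of the values that answer a comparison stayed within the limit set for a change and 32 moved, and of the values for named members 224 kept their call and 68 lost it. With only the arrays of the compared cell types in the fit, 2 members rose in liver, 1 in pre-mid-pachytene spermatocytes and 0 differed between them. That fit leaves few residual degrees of freedom and takes the spread from those arrays alone. With a minimum mean of 8, which tests fewer genes, 4 rose in pre-mid-pachytene spermatocytes. With no filter 1 member, Decr2, differed between mid-late-pachytene spermatocytes and liver and 1, Nthl1, between spermatids and liver, both near the background range in the germ cells. With quantile normalization 1 member, Mapk8ip3, differed between spermatids and pre-mid-pachytene spermatocytes, and with each array centred on its autosomal median 1, Ndufb10, rose in spermatids; the cause was not tested. That centring moved the split of all genes called to 370 up and 532 down in liver, against 511 and 342 as deposited, and to 1029 up and 350 down in pre-mid-pachytene spermatocytes, against 613 and 382, and it gave 3 members, Hagh, Tbl3 and Mapk8ip3, with a greater and 4 with a smaller change in those spermatocytes than in liver. Centring on the tested autosomal genes, added after the data were seen, gave 363 up and 510 down in pre-mid-pachytene spermatocytes and left 6 members rising there, without Hagh, Rhot2 and Nubp2. The block difference in pre-mid-pachytene spermatocytes was 0.089 over members with a mean of at least 8 and 0.30 as a mean over members, and as a mean it was 0.47 in spermatids. Leaving out 1 array gave 12 to 22 members rising in liver, 3 to 7 in pre-mid-pachytene spermatocytes, 0 to 2 in spermatids and 0 to 1 in mid-late-pachytene spermatocytes. The differences between cell types then numbered 1 to 8 for pre-mid-pachytene spermatocytes against liver, 0 for mid-late-pachytene spermatocytes against liver, 0 to 1 for spermatids against liver (1 without trisomic spermatid replicate 1) and 0 to 2 for spermatids against pre-mid-pachytene spermatocytes (2 without euploid pre-mid-pachytene replicate 2). The block difference ran from 0.64 to 0.76 in liver, 0.40 to 0.43 in spermatids, 0.31 to 0.48 in mid-late-pachytene spermatocytes and 0.14 to 0.26 in the pre-mid-pachytene cells.

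In the germ cells replicate numbers did not regularly pair the samples: same-numbered trisomic and euploid arrays correlated at -0.13 to 0.36 in their deviations. In liver every trisomic array correlated best with the euploid array of its own number, at 0.074 to 0.24. With the replicate number as a block, 18 members rose in liver, 7 in pre-mid-pachytene spermatocytes, 1, Ndufb10, in spermatids and 0 in mid-late-pachytene spermatocytes, and 6 differed between pre-mid-pachytene spermatocytes and liver. Probe sets with a mean under 4 lie close to background, which limits what 8 members can show in any cell type.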
